A study of Sus scrofa with 6 samples.

Results

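The genes described here make, store and move lipid in the mature pig egg. They are 45 genes of fatty acid synthesis, cholesterol synthesis, the sterol-sensing control of both, lipid droplets, and fatty acid and cholesterol carriers. Members were found by the single gene symbol that the platform's annotation gives a probe set, and 34 of the 45 genes were found, on 57 of the 23999 non-control probe sets. The 11 genes with no probe set here were ACACB, ELOVL5, MVK, PMVK, MVD, IDI1, LSS, CYP51A1, EBP, DHCR7 and SOAT1, so 8 of the 16 cholesterol synthesis genes were not analysed. Affymetrix arrays were read for in vitro matured oocytes of prepubertal pigs (gilt) and of adult pigs (sow), with 3 arrays in each group. Both groups came from follicles of 2 to 6 mm, were matured for 42 to 44 h, were stripped of cumulus cells and were checked for a polar body. The labels call the prepubertal oocytes developmentally incompetent and the adult ones competent, and give no breed, age in days or number of oocytes and animals per array. Replicates are called biological in the labels, and nothing says that they came from separate animals, so a p-value measures the spread between these samples.

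Mammalian eggs carry lipid droplets, which hold triglycerides and cholesterol esters under a coat of perilipin proteins, and pig eggs are so rich in them that their cytoplasm looks dark. Fatty acids are built by the carboxylase ACACA and the synthase FASN, lengthened by ELOVL enzymes and made unsaturated by SCD and the FADS enzymes. Cholesterol is built from acetyl-CoA through mevalonate, squalene and lanosterol. When membrane sterol is low, SCAP escorts the transcription factors SREBF1 and SREBF2 out of the endoplasmic reticulum, and they switch on genes of both pathways, INSIG1 among them. INSIG1 and INSIG2 hold SCAP back when sterol is plentiful. Known SREBP targets in mouse include FASN, ELOVL6, SCD, HMGCS1, FDFT1, SQLE and INSIG1.

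The deposited values were MAS5 signals, linear brightness values with 1 per probe set and array. The arrays did not share a common level, with 2% trimmed mean signals of 105 to 131 in prepubertal and 121 to 160 in adult oocytes. The median log2 difference of the 12000 tested probe sets was −0.20 as deposited. Quantile normalization, which gives every array the same distribution of values, made it −0.01. Differences below are prepubertal minus adult on the log2(signal + 16) scale. They are as deposited unless quantile normalization is named, and not every one is given in both scalings. RNA was captured by its poly(A) tail, and a shorter tail and less mRNA cannot be told apart. Nor can fewer cells of a type and less RNA per cell. The log2 ratio of 3′ over 5′ signal of the GAPDH control probe sets was 3.30 to 4.87 in prepubertal and 4.55 to 6.91 in adult oocytes (exact permutation p = 0.2, 2-sided). That of ACTB was 8.39 to 12.03 in prepubertal and 9.12 to 12.2 in adult oocytes (p = 0.9, exact permutation). Their part in the results below was not tested.

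No lipid gene passed the test between prepubertal and adult oocytes. Of the 57 probe sets, 35, for 25 genes, had a mean log2 value at or above the median of all probe sets and were tested. With limma, 0 of the 35 passed an adjusted p of 0.05, where 0.475% of all tested probe sets did. The same count after quantile normalization was 0, where 0.117% of all tested probe sets passed. At an unadjusted p under 0.05 there were 5, all with lower values in prepubertal oocytes: FASN, ELOVL6, SQLE, MSMO1 and INSIG1. That is 14.3% of the tested members, and 14.7% of all tested probe sets reached the same mark, 13.6% of them with lower values. After quantile normalization 5 members reached it again, 4 with lower values (ELOVL6, FASN, MSMO1 and INSIG1) and PLIN2 with higher ones. Of all tested probe sets 10.8% reached it then, 5.79% with lower and 5.06% with higher values. Groups did not overlap for 5 of the 35, all lower, against 19% of all tested probe sets (17.1% lower), and for 7 of the 35 after quantile normalization, against 16.3%. Values were lower in prepubertal oocytes for 20 of the 35, against 74.8% of all tested probe sets, and for 16 of the 35 after quantile normalization, against 51.1%. Of the other settings tried, some called members: a filter at the 75th percentile called 1 of 13 (ELOVL6), where 2.88% of all its probe sets passed, and array weights called 3 of 35 (ELOVL6, INSIG1 and MSMO1), where 10.5% passed. The fit without prepubertal replicate 1 called 2 (ELOVL6 and MSMO1), where 5.14% passed.

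**Figure D1:**
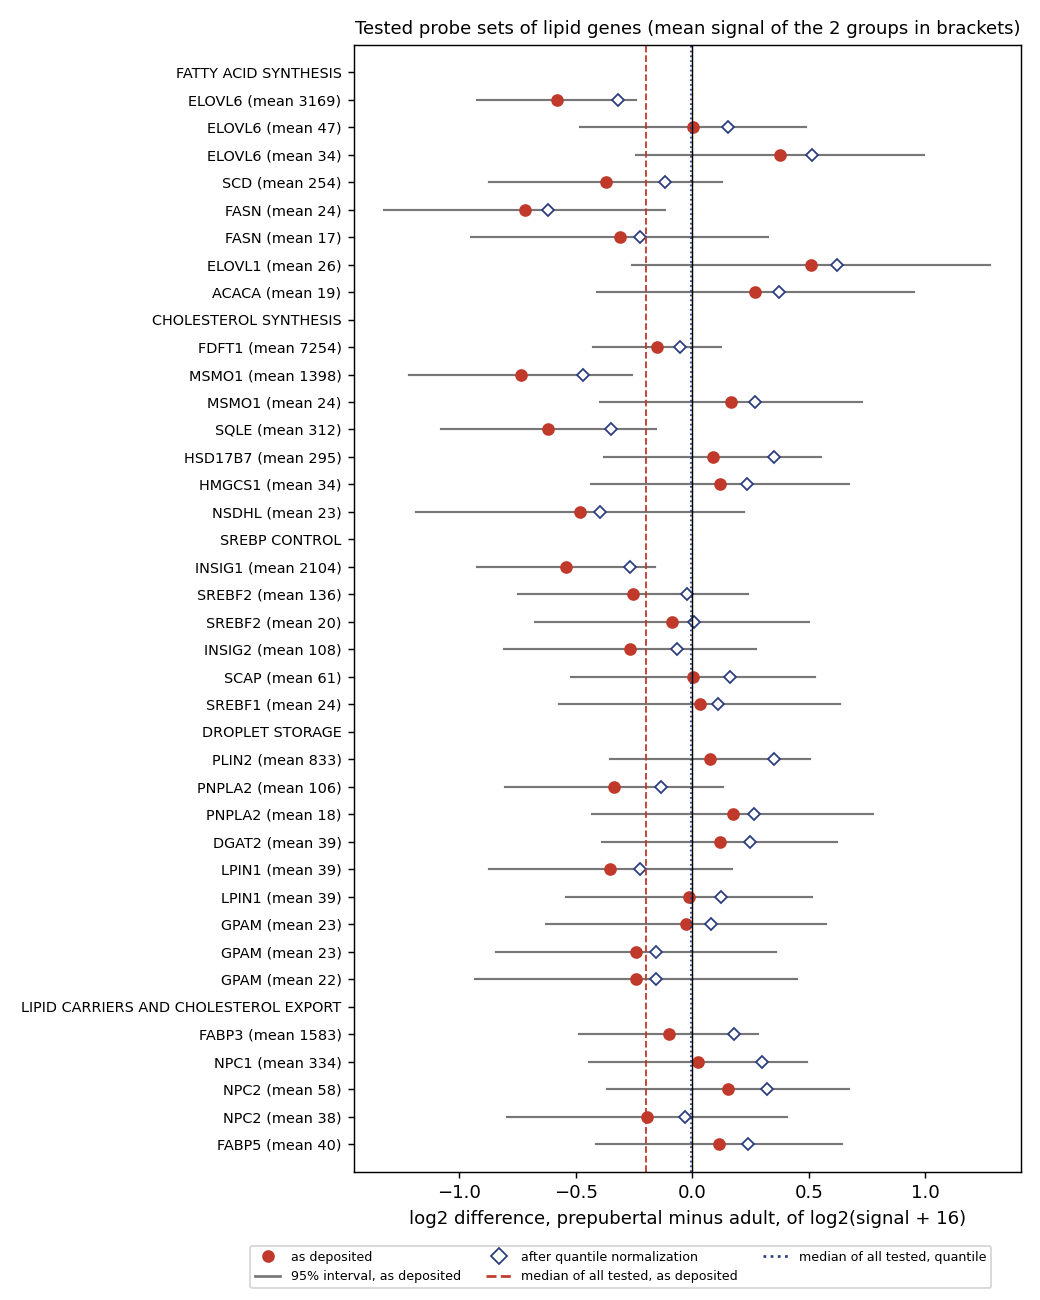
Log2 differences, prepubertal minus adult, of the 35 tested probe sets, ordered by role. Filled circles with 95% intervals are the values as deposited, open diamonds those after quantile normalization, and the dashed and dotted lines mark the medians of all 12000 tested probe sets (−0.20 and −0.01). The 5 intervals that stay below 0 belong to bright ELOVL6, MSMO1 and INSIG1 probe sets, to SQLE and to a dim FASN probe set.

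The roles differed in where their medians lay. As deposited, 3 of 5 tested genes of fatty acid synthesis had lower values, with a median log2 difference of −0.37, and 4 of 6 of cholesterol synthesis, with a median of −0.32. The 5 genes of sterol-sensing control had a median of −0.26. The 5 tested genes of droplet storage had −0.03 and the 4 carriers 0.07, while all 25 genes together had −0.10, against −0.20 for all tested probe sets. After quantile normalization these medians were −0.12 for fatty acid synthesis, −0.20 for cholesterol synthesis, −0.02 for sterol-sensing control, 0.08 for droplet storage and 0.27 for carriers. Medians over so few genes, each read by its brightest tested probe set, moved with the settings, and the differences between roles carry no test.

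Among enzymes that build fatty acids, ELOVL6, which lengthens palmitate to stearate, had the smallest p of all lipid genes. Its brightest probe set had signals of 2480, 2461 and 2626 in prepubertal oocytes, against 4441, 3204 and 3802 in adult oocytes. The highest prepubertal value lay below the lowest adult one, so the groups did not overlap. Prepubertal oocytes averaged 2522 ± 90.3 and adult oocytes 3815 ± 619 (SD, 3 arrays a group). This is 1.5-fold lower, and the log2 difference was −0.58 (SE 0.16, 95% interval −0.92 to −0.24, limma adjusted p = 0.119). After quantile normalization it was 1.25-fold lower (adjusted p = 0.314), still without overlap. Without prepubertal replicate 1 its limma adjusted p was 0.0473, where 5.14% of all tested probe sets passed. In every other fit that left out 1 array it was 0.121 or more. Over the 6 such fits the ELOVL6 log2 difference ran from −0.70 to −0.47.

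FASN, the synthase that assembles palmitate, was read by 4 probe sets, all dim and all with lower mean values in prepubertal oocytes, and 2 of them were tested. The brighter tested one had 9.33, 14.4 and 19.1 in prepubertal oocytes, against 48.0, 25.1 and 29.9 in adult oocytes. Its groups did not overlap, and its log2 difference was −0.72 ± 0.29 (SE, limma adjusted p = 0.267), or −0.62 after quantile normalization. At such signals the fold depends on the constant of 16. The other tested FASN probe set had 12.5, 11.8 and 14.7 in prepubertal oocytes, against 24.1, 11.4 and 26.3 in adult oocytes, with overlap (log2 difference −0.31). Under quantile normalization all 4 kept lower values.

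SCD, the desaturase that makes oleate, had signals of 264, 173 and 220 in prepubertal oocytes, against 368, 237 and 262 in adult oocytes. The groups overlapped, and its log2 difference of −0.37 (95% interval −0.87 to 0.13, limma adjusted p = 0.48) was −0.12 after quantile normalization. ELOVL1, which lengthens very long chains, had scattered values, 6.66, 35.7 and 65.5 in prepubertal and 8.96, 14.6 and 27.2 in adult oocytes, with a log2 difference of 0.51 and an interval of −0.26 to 1.28. For ACACA, the carboxylase that commits acetyl-CoA to fatty acids, the tested probe set had 24.9, 16.4 and 21.5 in prepubertal oocytes, against 30.4, 4.17 and 14.2 in adult oocytes. Its second probe set, under the filter, had 12.5, 4.64 and 5.59 in prepubertal oocytes, against 17.7, 15.8 and 13.8 in adult oocytes. The first overlapped and leaned higher (0.27), the second did not overlap and lay lower (−0.44). The desaturases FADS1 and FADS2 were under the filter, with no signal above 14.5, and the brighter FADS2 probe set had 2.74, 14.5 and 10.1 in prepubertal oocytes, against 7.43, 5.69 and 8.26 in adult oocytes.

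**Figure D2:**
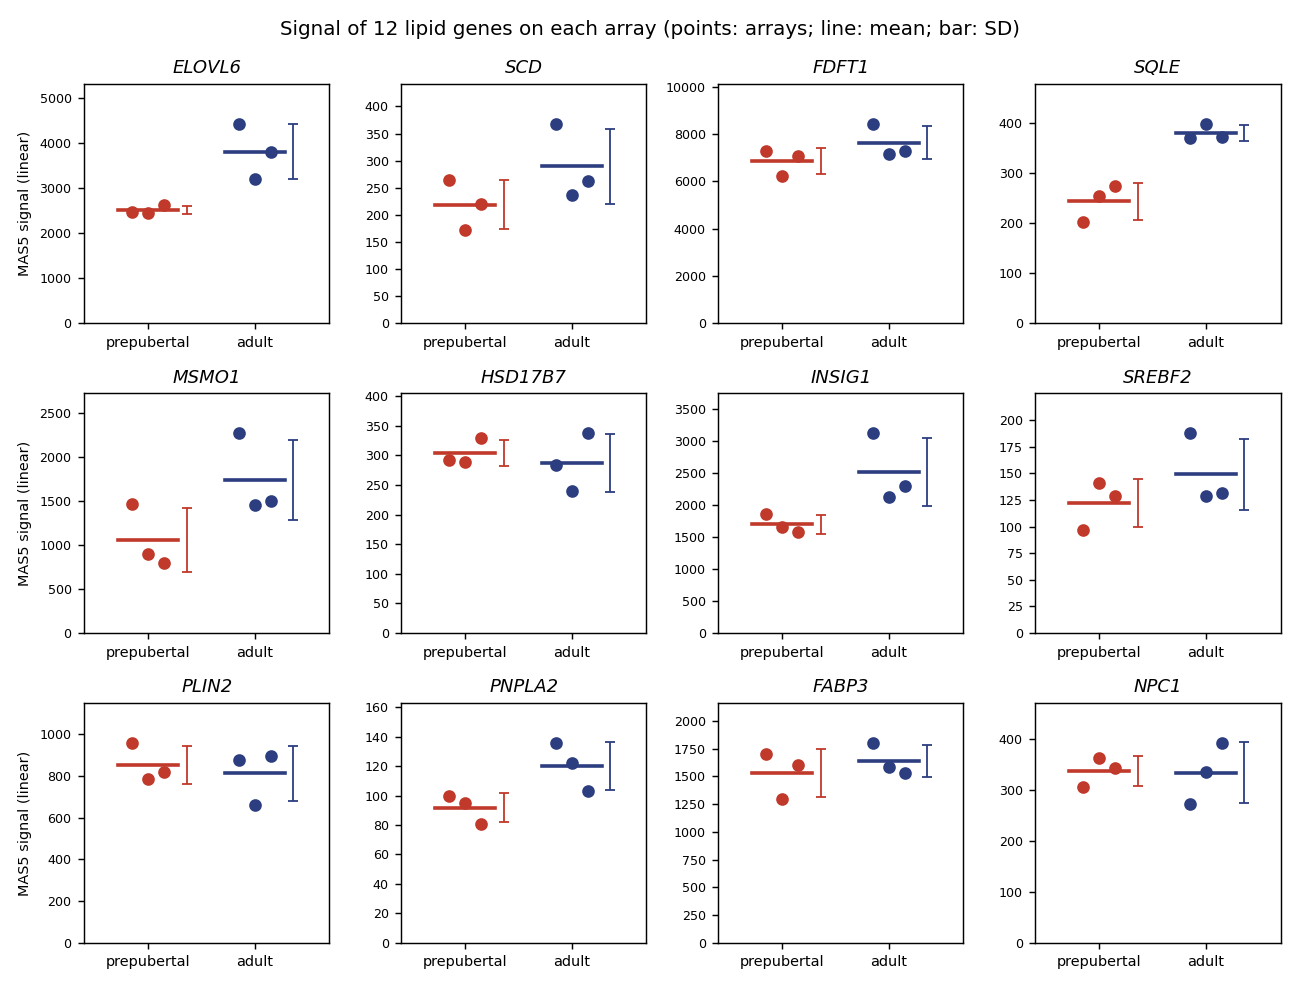
MAS5 signal of 12 lipid genes on each array, by the brightest tested probe set, with prepubertal arrays left and adult arrays right. Points are arrays, lines group means and bars SDs (n = 3 each), and every axis is linear and starts at 0. ELOVL6, SQLE, INSIG1 and PNPLA2 do not overlap between groups as deposited, and the other 8 do.

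In the cholesterol pathway, FDFT1, squalene synthase, makes the first committed sterol precursor. Its signals were 7306, 6230 and 7070 in prepubertal oocytes, against 8450, 7160 and 7309 in adult oocytes. The groups overlapped, and the log2 difference was −0.15 with a 95% interval of −0.43 to 0.12, the narrowest of the tested lipid probe sets (limma adjusted p = 0.616). After quantile normalization the difference was −0.05, and the groups, then close together, did not overlap.

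SQLE, the epoxidase that acts on squalene next, had signals of 203, 254 and 274 in prepubertal oocytes, against 369, 399 and 372 in adult oocytes. All prepubertal arrays lay below all adult arrays. Prepubertal arrays averaged 244 ± 36.8 and adult arrays 380 ± 16.3 (SD, n = 3 each), 1.54-fold lower. The log2 difference was −0.62 (SE 0.22, 95% interval −1.08 to −0.16, limma adjusted p = 0.219). After quantile normalization the difference was 1.27-fold and the groups overlapped (adjusted p = 0.543).

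MSMO1, the oxidase that starts removal of the methyl groups of lanosterol's product, had the largest difference of the bright lipid genes. Its signals were 1468, 898 and 795 in prepubertal oocytes, against 2269, 1453 and 1502 in adult oocytes. Prepubertal replicate 1 lay just above adult replicate 2, so the groups overlapped. The log2 difference was −0.74 ± 0.23 (SE, 95% interval −1.22 to −0.26), 1.67-fold lower, with a limma adjusted p of 0.169, and it was 1.38-fold lower after quantile normalization (adjusted p = 0.313). Without prepubertal replicate 1, its highest prepubertal value, it was −1.0 with a limma adjusted p of 0.0042, where 5.14% of all tested probe sets passed. No other fit without 1 array gave a lipid probe set a limma adjusted p under 0.121. Over all 6 such fits the MSMO1 difference ran up to −0.53.

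The other sterol enzymes varied in direction. HSD17B7, the reductase that follows in the same demethylation steps, had 293, 289 and 329 in prepubertal oocytes, against 284, 239 and 337 in adult oocytes, with overlap. Its log2 difference was 0.09 (95% interval −0.38 to 0.55) and 0.35 after quantile normalization (limma adjusted p = 0.477 there). NSDHL, the dehydrogenase between MSMO1 and HSD17B7, was dim, with 16.8, 6.08 and 25.9 in prepubertal oocytes, against 37.3, 43.2 and 10.2 in adult oocytes, and a log2 difference of −0.48, with its second, untested probe set also lower (−0.26). HMGCS1, which makes HMG-CoA at the start of the pathway, had 48.4, 33.7 and 25.5 in prepubertal and 38.1, 22.1 and 34.1 in adult oocytes (log2 difference 0.12). FDPS, which makes farnesyl diphosphate, and SC5D, a desaturase of the last steps, were under the filter.

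For control by sterol, INSIG1 stood out among the 5 genes measured. Signals of its bright probe set were 1860, 1653 and 1579 in prepubertal oocytes, against 3117, 2117 and 2296 in adult oocytes. The groups did not overlap, with adult replicate 1 the highest. Prepubertal arrays averaged 1697 ± 145 and adult arrays 2510 ± 533 (SD, n = 3 each), 1.46-fold lower, and the log2 difference was −0.54 (SE 0.18, 95% interval −0.93 to −0.16, limma adjusted p = 0.20). Quantile normalization left it 1.2-fold lower and without overlap (adjusted p = 0.413).

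INSIG2, its relative, had 146, 71.1 and 77.7 in prepubertal oocytes, against 153, 97.1 and 105 in adult oocytes, with overlap and a log2 difference of −0.27, or −0.07 after quantile normalization. SREBF2, the factor that mainly drives sterol genes, had 96.5, 141 and 129 in prepubertal oocytes, against 187, 129 and 131 in adult oocytes on its brightest probe set. Its log2 difference was −0.26 (95% interval −0.75 to 0.24), and −0.02 after quantile normalization. SCAP, the escort of both factors, and SREBF1, which mainly drives fatty acid genes, had log2 differences of 0.0051 and 0.03, with intervals of −0.52 to 0.53 and −0.57 to 0.63. After quantile normalization SCAP had 0.16 and SREBF1 0.11.

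Lipid droplet genes showed small differences. PLIN2, the main perilipin coat protein of the droplet, had signals of 956, 787 and 816 in prepubertal oocytes, against 878, 662 and 897 in adult oocytes. The groups overlapped as deposited, with a log2 difference of 0.08 (95% interval −0.35 to 0.51, limma adjusted p = 0.887). After quantile normalization the difference was 0.35, 1.28-fold higher, and the groups did not overlap (unadjusted p = 0.0138, adjusted p = 0.32).

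PNPLA2, the lipase that starts triglyceride breakdown, had 99.9, 94.6 and 80.7 in prepubertal oocytes, against 136, 122 and 103 in adult oocytes on its brighter probe set. These groups did not overlap as deposited, but the log2 difference of −0.34 (limma adjusted p = 0.495) was −0.13 after quantile normalization, with overlap. A dimmer PNPLA2 probe set had 16.3, 21.9 and 23.3 in prepubertal oocytes, against 19.0, 14.2 and 15.7 in adult oocytes, a difference in the other direction (0.17). LIPE, the hormone-sensitive lipase, was under the filter, with no signal above 4.46.

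The enzymes that assemble triglyceride were dim. DGAT2, which adds the last fatty acid, had 41.3, 45.3 and 38.0 in prepubertal oocytes, against 31.9, 34.4 and 45.2 in adult oocytes (log2 difference 0.12, and 0.25 after quantile normalization). LPIN1, the phosphatase that makes diacylglycerol, had 35, 32.9 and 28.9 in prepubertal oocytes, against 61.4, 44.0 and 34.0 in adult oocytes on one probe set (log2 difference −0.35), and −0.01 on the other. GPAM, which attaches the first fatty acid to glycerol phosphate, had 22.1, 28.8 and 16 in prepubertal oocytes, against 33.3, 19.8 and 16.7 in adult oocytes on the brightest of its 3 tested probe sets. All 3 overlapped between groups, with log2 differences of −0.03, −0.24 and −0.24. DGAT1, the other enzyme of the last step, was under the filter, with 18.3, 2.59 and 16.6 in prepubertal oocytes, against 2.39, 11.6 and 8.28 in adult oocytes on its brighter probe set. AGPAT2, an acyltransferase that makes phosphatidic acid, and PLIN3, another droplet protein, were under the filter too.

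Among carriers, FABP3, a cytosolic fatty acid-binding protein, was bright, with 1702, 1292 and 1599 in prepubertal oocytes, against 1798, 1579 and 1528 in adult oocytes. The groups overlapped, and its log2 difference was −0.10 (95% interval −0.48 to 0.28) as deposited and 0.18 after quantile normalization, so its sign depends on the scaling. FABP5, another family member, had 44.9, 28 and 54.1 in prepubertal and 41.1, 33.3 and 36.4 in adult oocytes on its brighter probe set. FABP4, the adipocyte form, was under the filter with no signal above 10.1.

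NPC1, the membrane protein that moves cholesterol out of lysosomes, had 305, 361 and 342 in prepubertal oocytes, against 272, 335 and 391 in adult oocytes. The groups overlapped, with a log2 difference of 0.02 (95% interval −0.44 to 0.49) and 0.30 after quantile normalization. NPC2, its soluble partner, had 45.7, 68.7 and 70.9 in prepubertal oocytes, against 72.2, 37.9 and 53.6 in adult oocytes on its brightest probe set. A second tested NPC2 probe set had a log2 difference of −0.19, against 0.15 for the first.

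Probe sets of one gene often differed in sign. Of the 14 genes with more than 1 probe set, 5 had the same sign on all of them as deposited (FASN, NSDHL, DGAT1, GPAM and LPIN1) and 3 after quantile normalization. The brighter ELOVL6 probe set differed by −0.58, while the others tested had 0.0046 and 0.38, with mean signals of 47.0 and 38.7 in prepubertal oocytes, against 47.0 and 28.4 in adult oocytes. For MSMO1 the bright probe set had −0.74 and a dim one 0.17, with 24.8, 26.0 and 28.7 in prepubertal and 26.0, 17.8 and 22.1 in adult oocytes. The only other INSIG1 probe set was under the filter, with no signal above 6.47. So each of the lower values of ELOVL6, MSMO1 and INSIG1 rests on 1 bright probe set, and SQLE and SCD had 1 probe set each.

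These disagreements were also measured within each array. The log2 ratio of the brighter over the dimmer probe set differed, prepubertal minus adult, by −0.59 and −0.96 for the ELOVL6 pairs, by −0.90 for MSMO1, by −0.51 for PNPLA2 and by −0.34 for the LPIN1 pair. Each of these 5 had an exact permutation p of 0.1 (2-sided), the smallest that 3 arrays against 3 can give. After quantile normalization the differences were −0.47 and −0.83 for ELOVL6, −0.74 for MSMO1, −0.40 for PNPLA2 and −0.34 for LPIN1, again with an exact permutation p of 0.1 each. The dimmer partners of these 5 pairs had group mean signals of 16.3 to 47.0, where the added constant of 16 makes a log2 difference smaller. The 2 LPIN1 probe sets were about equally bright, with mean log2 values of 5.77 and 5.76. The part of the constant in these disagreements was not tested. The other 5 of the 10 pairs of tested probe sets had exact permutation p from 0.2 to 0.7 as deposited. After quantile normalization the NPC2 pair differed by 0.35, in the other direction (exact permutation p = 0.1). The FASN, SREBF2 and GPAM pairs then had exact permutation p from 0.3 to 0.9.

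**Figure D3:**
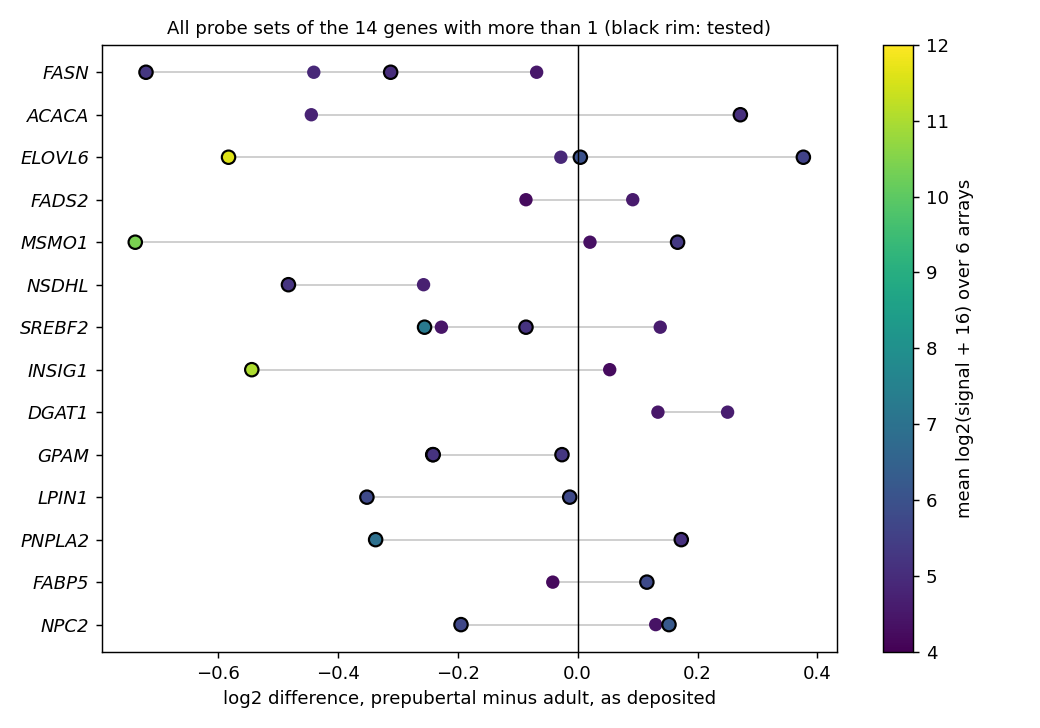
Log2 difference as deposited, prepubertal minus adult, of every probe set of the 14 genes with more than 1. Points are probe sets, coloured by mean log2(signal + 16) over the 6 arrays, and a black rim marks those tested. The brightest probe sets of ELOVL6, MSMO1 and INSIG1 lie left of 0 (−0.58, −0.74 and −0.54), and their dimmer ones lie near or right of it.

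Ratios between lipid genes on the same array were compared for 9 pairs of neighbours in a pathway, chosen after their values were seen. They show unequal change, not which gene changed. As deposited, only SQLE over FDFT1, consecutive enzymes on squalene, separated the groups without overlap. The log2 ratio was −5.07, −4.53 and −4.61 in prepubertal oocytes, against −4.46, −4.11 and −4.24 in adult oocytes, a difference of −0.47 (exact permutation p = 0.1, 2-sided, adjusted p = 0.54 over the 9 pairs). After quantile normalization that difference was −0.30 and the groups overlapped (exact permutation p = 0.4). The ratio of PLIN2, the droplet coat, over PNPLA2, the lipase, was 2.86 to 3.11 in prepubertal and 2.29 to 2.94 in adult oocytes on the log2 scale, a difference of 0.41 (p = 0.2, exact permutation), or 0.49 after quantile normalization, without overlap then (p = 0.1, exact permutation). INSIG1 over INSIG2 differed by −0.28, and MSMO1 over SQLE by −0.12, with exact permutation p of 0.4 and 0.7.

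**Figure D4:**
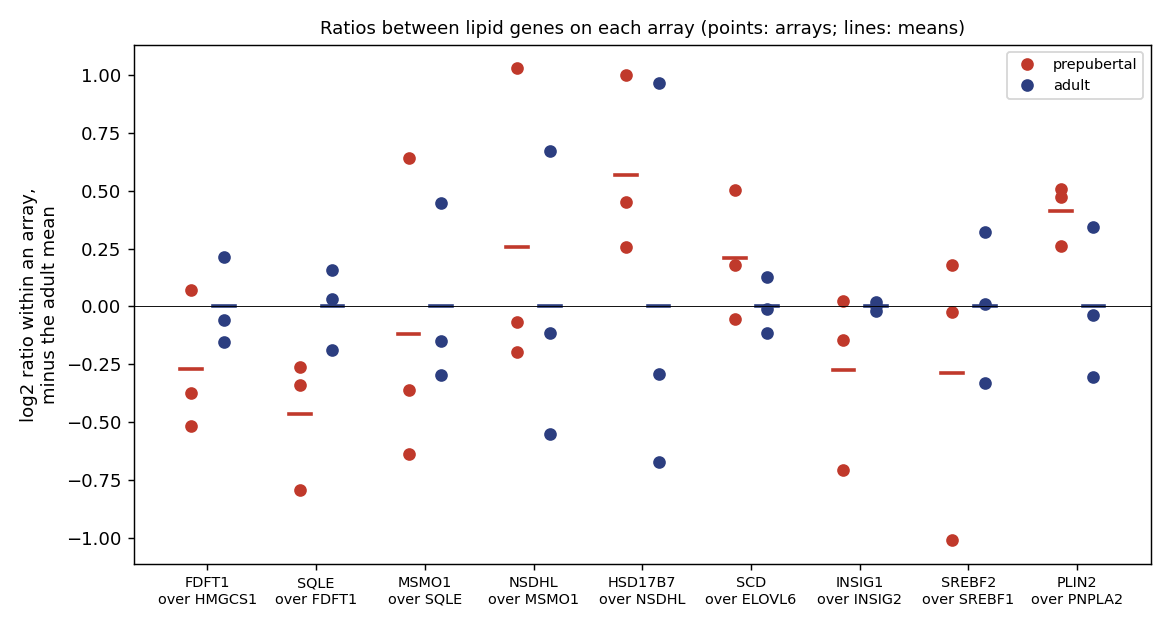
Log2 ratios as deposited between 9 pairs of lipid genes on each array, with the adult mean of each pair set to 0. Points are arrays (prepubertal left, adult right within each pair) and lines are group means. For SQLE over FDFT1 all 3 prepubertal arrays lie below all 3 adult arrays, and every other pair overlaps.

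The 22 lipid probe sets under the filter included every probe set of 9 genes: FADS1, FADS2, FDPS, SC5D, DGAT1, AGPAT2, PLIN3, LIPE and FABP4. Their highest signal on any array was 44.3, on a FASN probe set in adult replicate 1. Of the 22, 11 had lower and 11 higher values in prepubertal oocytes, and with no filter none reached an unadjusted p of 0.05 in limma (lowest adjusted p 0.624). These signals lie where the array separates little from background, so a low value here does not show that the mRNA is absent.

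Other genes of the same pathways gave no call either. Of 117 further lipid gene names, 65 were found and 43 genes were tested, on 53 probe sets. With limma, 0 passed an adjusted p of 0.05 in either scaling. As deposited 5 of the 53 had an unadjusted p under 0.05, all with lower values, which is 9.43%, against 13.6% of all tested probe sets. After quantile normalization 4 of the 53 reached that mark with lower values, against 5.79% of all tested probe sets. With higher values 1 reached it, against 5.06%. Values were lower as deposited for 38 of the 43 genes (88.4%, against 74.8% of all tested probe sets), with a median of −0.24, against −0.20. They were lower for 24 of 43 after quantile normalization (55.8%, against 51.1%), with a median of −0.0073.

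The 5 as deposited were CEPT1, CYB5A, GPAT4, PGRMC1 and LPCAT3. CEPT1, which makes phosphatidylcholine and phosphatidylethanolamine, had 427, 357 and 334 in prepubertal oocytes, against 683, 527 and 543 in adult oocytes. Its groups did not overlap, and it was 1.54-fold lower (limma adjusted p = 0.209) and 1.26-fold lower after quantile normalization. CYB5A, the cytochrome that passes electrons to desaturases, had 1290, 929 and 870 in prepubertal oocytes, against 1582, 1329 and 1396 in adult oocytes, 1.41-fold lower (limma adjusted p = 0.272).

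GPAT4, an acyltransferase of glycerolipid synthesis in the endoplasmic reticulum, had 61.5, 6.43 and 29.5 in prepubertal oocytes, against 58.0, 75.3 and 72.8 in adult oocytes. Without prepubertal replicate 1, its highest prepubertal value, it passed the limma threshold (log2 difference −1.40, adjusted p = 0.00321), against −0.97 and 0.189 with all arrays. PGRMC1, a haem-binding membrane protein linked to sterol synthesis, and LPCAT3, which remodels phospholipids, were dim, with log2 differences of −0.93 and −0.72 (limma adjusted p = 0.181 and 0.274). ACSL4, HSD17B12, HACD3, STARD3, OSBPL9, SCARB1 and PTDSS1 followed, with limma adjusted p of 0.402 or more. Of these, STARD3 and SCARB1 had higher values in prepubertal oocytes (log2 differences 0.50 and 0.30). HACD3 had its smallest p on a dim probe set (−0.48), and its brighter ones had −0.19, −0.22 and −0.27.

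Some markers of other cells that a follicle holds were above the filter, on 18 probe sets. Of these 18, 10 had lower values in prepubertal oocytes, against 74.8% of all tested probe sets. With limma, 0 passed an adjusted p of 0.05, against 0.475% of all tested probe sets. At an unadjusted p under 0.05 there were 2 of the 18, both lower, against 13.6% of all tested probe sets with lower values. The summed signal of 19 measured cumulus and granulosa genes was 418 to 478 in prepubertal and 424 to 537 in adult oocytes (exact permutation p = 0.4, 2-sided). Of these, 4 genes were above the filter. INHBA, an activin subunit, was the brightest, with 90.3, 100 and 111 in prepubertal oocytes, against 135, 109 and 133 in adult oocytes, with overlap. INHA, HSD3B1 and VCAN reached 61.6, 42.5 and 75.9 on single arrays. Under the filter, INHBB, FOXL2 and CYP19A1 reached 34.8, 20.2 and 18.7, while FSHR, AMH, STAR and KRT18 had no signal above 9.44. Theca and stroma genes summed to 135 to 181 in prepubertal and 167 to 228 in adult oocytes (p = 0.3, exact permutation), with 5 of 10 measured above the filter. COL3A1, a fibrillar collagen, had 24.9, 5.37 and 18.5 in prepubertal oocytes, against 50.6, 26.8 and 46.3 in adult oocytes, 1.81-fold lower without overlap (limma unadjusted p = 0.00969, adjusted p = 0.214). The tested LHCGR probe set went the other way without overlap, with a log2 difference of 0.52 (limma adjusted p = 0.466). It had 0.57 after quantile normalization, again without overlap. Tested probe sets of COL1A2 and DCN had log2 differences of 0.05 and 0.10, and that of VIM −0.29, all with overlap as deposited. A second COL1A2 probe set, under the filter, had a log2 difference of −0.62 without overlap, with no signal above 19.4. ACTA2 and TAGLN, also under the filter, had −0.55 and −0.28, with overlap. Under the filter, CYP17A1 and a second DCN probe set went the other way (0.09 and 0.10). Blood and immune genes summed to 173 to 417 in prepubertal and 304 to 511 in adult oocytes (p = 0.3, exact permutation), and HBB, the beta globin gene, alone of 6 was above the filter. HBB had 367, 127 and 148 in prepubertal oocytes, against 428, 221 and 238 in adult oocytes, with overlap. Sums for endothelium were 146 to 219 in prepubertal and 208 to 228 in adult oocytes. ENG, an endothelial receptor, had 24.7, 8.94 and 1.95 in prepubertal oocytes, against 31.4, 29.8 and 32.3 in adult oocytes, 1.79-fold lower without overlap (limma unadjusted p = 0.0151, adjusted p = 0.243). Sums for adipocyte genes, which include FABP4 and LPL of the lipid lists, were 59.5 to 80.4 in prepubertal and 53.4 to 95.2 in adult oocytes. The 6 measured oocyte genes summed to 4587 to 5528 in prepubertal and 4846 to 5535 in adult oocytes. The part of other cells in the lipid differences was not tested.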

How the data were processed

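Poly(A) RNA was amplified in 2 cycles and hybridized as biotinylated cRNA, per the labels' protocols. The deposited intensity values are MAS5 signals of 24123 probe sets on 6 arrays, per the submitters' processing notes. Neither the version of MAS5 nor any scaling target is given in the sources used here. No detection calls or genome build were used, and 0 value columns were unmatched. The 124 control probe sets were left out. Probe sets with a mean log2(signal + 16) at or above the median (12000) entered a limma fit (version 3.58.1, R 4.3.3, with lmFit and eBayes on an intensity trend, 2-sided), with Benjamini-Hochberg adjustment over all of them. All gene p-values are from this fit unless another test is named. Quantile normalization used log2 values of non-control probe sets. Symbols came from the platform annotation, updated by Entrez identifier through RefSeq's table for Sscrofa11.1, which altered 0 of the members. Of the non-control probe sets 10069 had 1 symbol, 198 several and 13732 were not listed.

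In list medians the brightest tested probe set stood for its gene. The members and lists were chosen with earlier results of these data known. Values in every array are given for members with an unadjusted p under 0.05 in either scaling, with 2 or more probe sets (at least the brightest), or among the 2 smallest p of a role, and for others that fill a pathway. Of further lipid genes the 4 with the smallest p per list are named. The fit was tested on simulated data. Alternatives were other constants, filters, scalings and variance models, array weights, a replicate block, other gene representation and each array left out. Quantile normalization without each array, and for differences within arrays, was added after seeing the data. The number of arrays limits the precision.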

Additional observations from a re-analysis of the deposited data

How the results depend on the processing

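The 0 calls among lipid probe sets held under other constants, no filter, quantile normalization, median centring, a common trimmed mean, no intensity trend, a threshold of 0.10, symbols as listed, quantile normalization without each array, and without any array but prepubertal replicate 1. Array weights called 3 (ELOVL6, INSIG1 and MSMO1, adjusted p 0.0100 to 0.0254), where 10.5% of all tested probe sets passed, and a filter at the 75th percentile called 1 (ELOVL6, 0.0488), where 2.88% passed. Leaving out 1 array gave 0 to 2 lipid calls and 0 to 1 among further lipid genes (GPAT4), the upper ends without prepubertal replicate 1, where 5.14% of all passed. Array weights called 5 further lipid genes (PGRMC1, GPAT4, CEPT1, CYB5A and LPCAT3). Over all tested probe sets the count was 57 as deposited, 14 after quantile normalization and 3 to 617 without 1 array.

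With the replicate number as a replicate block, 4 lipid probe sets passed (MSMO1 0.00399, ELOVL6 0.00704, INSIG1 0.0114 and SQLE 0.0319) and 2 further lipid genes (CEPT1 and CYB5A), where 918 of all tested probe sets (7.65%) passed. Deviations from the group means correlated only weakly, at 0.11, 0.06 and 0.03, between arrays with the same number, and the labels give no pairing. Every array correlated best with its own number. The margin was small for number 3 (0.029 against 0.024 or lower) and larger for number 1 (0.11 against −0.047 or lower). This is a hint from the data and not from the design.

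The cholesterol synthesis median was −0.15 and −0.19 with constants of 1 and 64, −0.072 with no filter, −0.12 with a common trimmed mean, −0.090 with array weights and −0.41 to −0.078 without 1 array. The droplet median was 0.14 with a common trimmed mean and −0.13 to 0.14 without 1 array, and the carrier median 0.29 with a common trimmed mean and 0.27 after quantile normalization. After quantile normalization, summed cumulus and oocyte markers were higher in prepubertal than in adult oocytes, by 0.11 and 0.22 on the log2 scale (exact permutation p = 0.1 each). As deposited these differences were −0.08 and −0.06. The normalized cumulus sums were 456 to 506 in prepubertal and 442 to 454 in adult oocytes. Those of oocyte markers were 5353 to 5720 and 4344 to 5034, so neither list overlapped between groups.

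Some uncalled differences turned sign, from small ones to that of NSDHL (−0.48 as deposited). After quantile normalization they were dim SREBF2 0.0058, GPAM 0.079, LPIN1 0.12 and FABP3 0.18. With a common trimmed mean they were SREBF2 0.070, GPAM 0.14, LPIN1 0.18, FABP3 0.17, NPC2 0.012 and FDFT1 0.11, with median centring GPAM 0.059 and LPIN1 0.072, and with a constant of 64 SCAP −0.0040. Array weights gave HMGCS1 −0.066, NPC1 −0.070, DGAT2 −0.017, SREBF1 −0.17, GPAM 0.0026 and 0.20, LPIN1 0.21, NSDHL 0.025, SCAP −0.18, PLIN2 −0.032 and ELOVL6 (dim) −0.034. Without 1 array the ranges crossed 0 for HMGCS1 (−0.048 to 0.27), HSD17B7 (−0.029 to 0.20), NPC1 (−0.11 to 0.14), SREBF1 (−0.19 to 0.16), GPAM (−0.15 to 0.15 and −0.64 to 0.030), LPIN1 (−0.13 to 0.14), SCAP (−0.24 to 0.16), FABP3 (−0.18 to 0.016), NPC2 (−0.41 to 0.081 and −0.027 to 0.33), FABP5 (−0.030 to 0.31), PLIN2 (−0.061 to 0.15), ELOVL6 (dim, −0.073 to 0.076) and ACACA (−0.026 to 0.36). The cause of these changes was not tested.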
